A study of Mus musculus with 15 samples.

Results

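The genes described here are 10 transcriptional repressors and outputs of the circadian clock that are known to peak together with Dbp: the PAR bZIP transcription factors Dbp, Tef and Hlf, the period genes Per1, Per2 and Per3, the nuclear receptors Nr1d1 and Nr1d2 (REV-ERBα and REV-ERBβ), Ciart and Bhlhe41. They were found by symbol among the 24982 gene symbols of the count data, and all 10 passed the filter on low counts together with 14121 genes in all. The set was chosen by results of these same libraries, in which Dbp and Tef were among the genes with the smallest P values between orchiectomized and control mice, so the differences between those 2 groups are given as a description without a test. RNA-Seq was performed on whole aortas of 15 wild-type male C57BL/6 mice aged 10 months, 5 per group, with 1 library per aorta. For 7 days, beginning 2 weeks after surgery, all 15 mice were given aldosterone by osmotic minipump (200 µg/kg each day) and drank water that contained 0.9% NaCl plus 0.2% KCl (Aldo-salt). Control mice had a sham operation, orchiectomized mice had their testes removed, and the DHT group was orchiectomized and carried a pellet of dihydrotestosterone, an androgen that aromatase cannot convert to estrogen. The mice lived under 14 hours of light and 10 hours of darkness. The hour of harvest is not given in the sources used here, so harvest hour and group cannot be told apart.

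In the mammalian clock, the heterodimer of CLOCK (or NPAS2) and BMAL1 (encoded by Arntl) binds E-box elements and drives transcription of the period and cryptochrome genes, whose proteins then repress the heterodimer. The same heterodimer drives the REV-ERB receptors, which repress Arntl, and Dbp, whose protein binds D-box elements in competition with the repressor NFIL3 (E4BP4). In most peripheral tissues, the aorta included, transcripts of Dbp, the REV-ERB receptors and the period genes therefore oscillate in roughly opposite phase to Arntl, and Dbp has one of the widest daily ranges of any transcript. Per1 also has glucocorticoid response elements and a cAMP response element and can respond to hormones and signals apart from the clock.

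The promoters of these genes are shown first because E-boxes and D-boxes are the elements through which the clock acts on them. RefSeq (GRCm38.p6, the assembly known as mm10) listed 11 promoter windows for 9 of the 10 genes, each reaching from 250 bases before the transcription start to 50 bases after it. Both strands were searched for 4 words, none of which contains another: the E-box CACGTG, the E'-box CACGTT, the D-box TTATGTAA or TTACGTAA, and the cAMP response element TGACGTCA. The bases before the start are printed 5′ to 3′ for 5 windows, with the matches in capitals.
Ciart (chr3:95882229-95882478, minus strand): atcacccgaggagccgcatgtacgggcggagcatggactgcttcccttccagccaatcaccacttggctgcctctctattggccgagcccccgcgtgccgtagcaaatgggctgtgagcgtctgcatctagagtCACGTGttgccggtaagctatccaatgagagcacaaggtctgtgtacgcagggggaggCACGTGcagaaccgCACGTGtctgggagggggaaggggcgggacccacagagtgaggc
Tef, second start (chr15:81811164-81811413, plus strand): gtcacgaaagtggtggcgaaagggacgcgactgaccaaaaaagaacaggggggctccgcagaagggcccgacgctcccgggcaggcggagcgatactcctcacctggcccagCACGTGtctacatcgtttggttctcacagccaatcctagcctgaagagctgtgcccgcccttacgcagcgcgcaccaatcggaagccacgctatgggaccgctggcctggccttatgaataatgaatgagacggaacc
Per1, first start (chr11:69098699-69098948, plus strand): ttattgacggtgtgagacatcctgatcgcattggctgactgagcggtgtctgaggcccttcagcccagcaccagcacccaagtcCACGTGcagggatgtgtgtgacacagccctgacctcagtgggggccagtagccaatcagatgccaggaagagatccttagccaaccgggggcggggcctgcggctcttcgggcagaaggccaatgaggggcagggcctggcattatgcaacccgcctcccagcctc
Per3 (chr4:151044666-151044915, minus strand): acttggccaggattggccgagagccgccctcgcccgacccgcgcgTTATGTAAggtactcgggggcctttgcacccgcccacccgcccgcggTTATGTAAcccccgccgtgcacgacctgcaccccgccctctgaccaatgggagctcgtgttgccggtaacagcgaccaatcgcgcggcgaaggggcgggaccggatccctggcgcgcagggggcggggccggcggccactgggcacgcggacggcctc
Nr1d1 (chr11:98775378-98775627, minus strand): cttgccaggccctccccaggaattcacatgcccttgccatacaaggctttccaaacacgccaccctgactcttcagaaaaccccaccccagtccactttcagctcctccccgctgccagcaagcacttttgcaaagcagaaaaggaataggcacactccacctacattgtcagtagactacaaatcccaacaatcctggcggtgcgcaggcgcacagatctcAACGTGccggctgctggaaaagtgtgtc

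The Ciart window held 3 E-boxes, which began 116, 58 and 44 bases before the start. Both Tef windows, the first Per1 window and the Bhlhe41 window held 1 E-box each. In all, 5 of the 11 windows (4 genes) contained an E-box, which 7.15% of all 32851 mouse promoter windows in the same table contained. The 2 matches of Per3 were D-boxes, found in 1.06% of all windows. They began 205 and 158 bases before the start. Nr1d1 had an E'-box (4.68% of all windows), which reads AACGTG on the printed strand and began 28 bases before the start. Hlf had a cAMP response element (1.79% of all windows) beginning 9 bases before the start. The windows of Dbp and Nr1d2 and the second window of Per1 held none of these words, which says only that the letters are not in those windows. These matches describe the sequence and were not tested as binding sites.

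**Figure D1:**
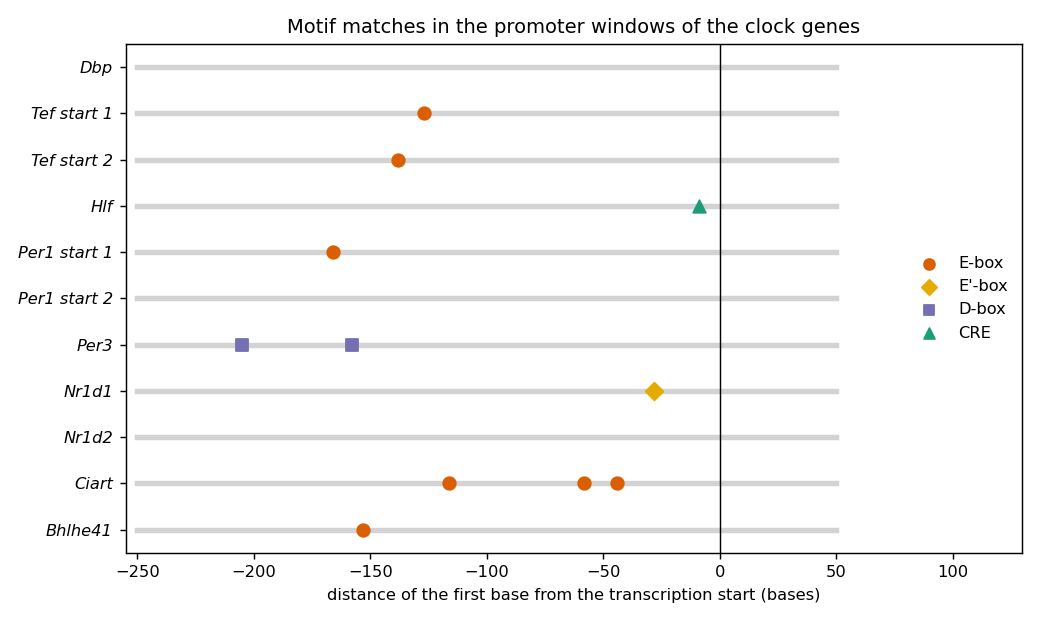
Positions of the motif matches in the 11 promoter windows, with distance from the transcription start in bases on the horizontal axis and 1 gray bar per window. The 3 E-boxes of Ciart and the 2 D-boxes of Per3 are the windows with more than 1 match.

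The libraries held between 8268957 and 13816864 counts assigned to genes. Smooth muscle markers (6 genes such as Myh11 and Acta2), which mark the aortic media, summed to between 10327 and 24499 CPM per library (counts of a gene scaled to a common, normalized library total). Fibroblast markers summed to 2620 to 6261 CPM and endothelial markers to 537 to 1134 CPM. Markers of tissue around the vessel were also present: white adipocyte markers summed to 2196 to 5276 CPM, brown adipocyte markers summed to 1159 to 4797 CPM and skeletal muscle markers to 10.4 to 498 CPM. Neutrophil markers (6 genes) summed to 1.25 to 2.99 CPM in control, 7.97 to 1147 CPM in orchiectomized and 2.61 to 11.8 CPM in DHT-treated mice, and lymphocyte markers (6 genes) to 3.75 to 6.66, 5.60 to 112 and 1.88 to 9.50 CPM. No marker was at 0 in every library of a group. In orchiectomized replicate 2 a single marker, Ltf (lactoferrin), was at 1116 CPM, where it was at 1.87 to 4.20 CPM in the other orchiectomized libraries. Without Ltf the neutrophil sum was 0.562 to 2.17 CPM in control, 5.64 to 31.2 CPM in orchiectomized and 2.25 to 11.2 CPM in DHT-treated mice, and replicates 1 and 2 of the orchiectomized group were alike (30.8 and 31.2 CPM). Other markers also moved with the groups. Between DHT-treated and orchiectomized mice, the 6 smooth muscle markers had a median log2 fold change of 0.44 and none passed an adjusted P of 0.05 by edgeR, DESeq2 or voom (5 had an unadjusted P under 0.05 by edgeR, as had 21.2% of all genes). The adjusted threshold was passed by 4.72% of all genes by edgeR, 9.1% by DESeq2 and 3.72% by voom. Of the 5 endothelial markers (median -0.44), 2 passed by edgeR, 2 by DESeq2 and 1 by voom. Of the 5 fibroblast markers (median -0.46), 1 passed by each. In edgeR's quasi-likelihood test the endothelial markers Pecam1 (-0.53 ± 0.13, adjusted P = 0.0323) and Vwf (-0.82 ± 0.22, adjusted P = 0.0437) fell. So did the fibroblast marker Lum (-1.90 ± 0.27, adjusted P = 0.0036). The other markers of both lists did not pass in that test, among them the endothelial Cdh5 (-0.30 ± 0.24) and Kdr (0.00 ± 0.38). All 5 tested lymphocyte markers were lower and passed by edgeR and DESeq2, with a median of -3.48, and 0 passed by voom, read against the same shares of all genes. Between DHT-treated and control mice, Lum fell by edgeR (-1.43 ± 0.27, adjusted P = 0.0432), Vwf had -0.75 ± 0.22 (adjusted P = 0.206), and all 6 smooth muscle markers were positive with a median of 0.41. The 7 skeletal muscle markers had medians of -2.27 between orchiectomized and control mice and 2.80 between DHT-treated and orchiectomized mice, where 3 passed by edgeR, 3 by DESeq2 and 0 by voom (beside 4.72%, 9.1% and 3.72% of all genes), and the 6 brown adipocyte markers had medians of -0.82 and 0.66. The part of any of these cells in the clock results was not tested. In bulk tissue, fewer cells of a type and less RNA per cell cannot be told apart.

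Dbp encodes an activator that binds D-boxes. Its level in the control mice was 14.1, 6.09, 4.59, 15.5 and 4.65 CPM in replicates 1 to 5. The orchiectomized mice had 56.2, 28.1, 32.7, 52.3 and 37.3 CPM. The DHT-treated mice had 44.6, 30.0, 31.1, 25.1 and 26.3 CPM. Every library of both orchiectomized groups lay above every control library, while the orchiectomized and DHT-treated ranges overlapped. Within the control group, replicates 1 and 4 (14.1 and 15.5 CPM) stood above the other 3 (4.59 to 6.09 CPM). Dbp is annotated in GENCODE at chr7:45705088-45710203 on the plus strand and shares 737 bases with Sphk2 on the opposite strand. Whether counting used strand is not given in the sources used here, so reads in the shared bases cannot be assigned with certainty. Sphk2 averaged 50.5 ± 4.42 CPM in control, 48.6 ± 4.21 CPM in orchiectomized and 60.8 ± 7.02 CPM in DHT-treated mice (SD, n = 5), with a log2 fold change with DHT of 0.32 ± 0.10 against orchiectomized (adjusted P = 0.0675 in edgeR's quasi-likelihood test) and 0.27 ± 0.10 against control mice (adjusted P = 0.318).

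Tef, the paralog of Dbp and the most abundant PAR bZIP transcript here, lies at chr15:81802421-81826863. It was at 113, 74.6, 86.6, 100 and 89.3 CPM in control mice. In orchiectomized mice it was at 168, 125, 155, 179 and 137 CPM, and in DHT-treated mice at 150, 122, 124, 144 and 134 CPM. As for Dbp, both orchiectomized groups lay wholly above the control group. The highest control library of Tef, replicate 1, was 1 of the 2 high Dbp libraries.

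Hlf, the third PAR bZIP factor (chr11:90336536-90390895), followed another order. Its levels were 33.5, 19.7, 27.5, 19.3 and 35.8 CPM in control mice. They were 32.0, 47.7, 35.7, 44.1 and 34.0 CPM in orchiectomized mice and 25.9, 18.2, 22.9, 32.1 and 22.2 CPM in DHT-treated mice. The DHT-treated levels (18.2 to 32.1 CPM) largely covered the range of the control group (19.3 to 35.8 CPM), and 1 DHT-treated library (replicate 4) reached the lowest orchiectomized library.

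**Figure D2:**
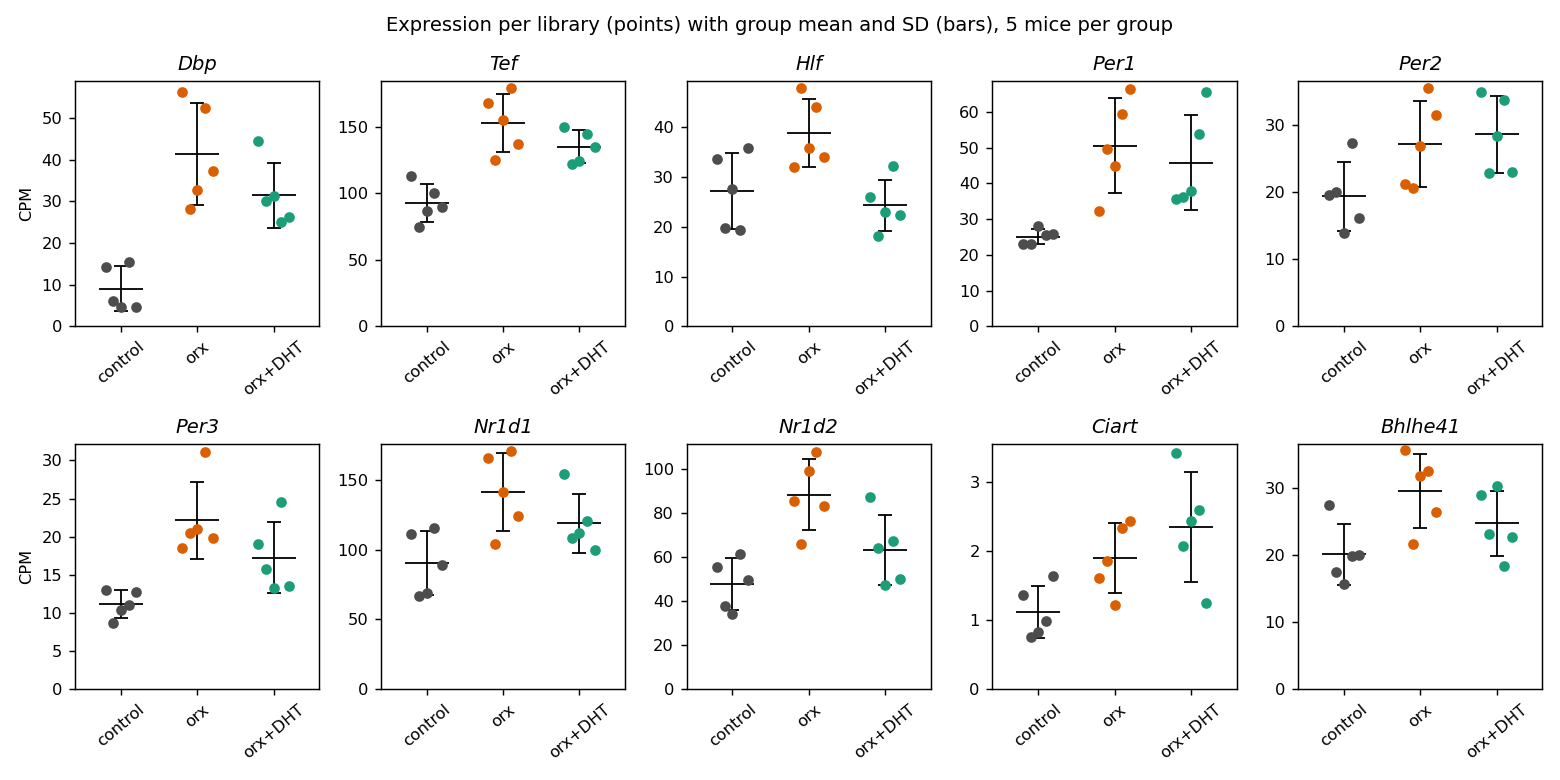
CPM of the 10 genes in each library, in control, orchiectomized (orx) and DHT-treated orchiectomized (orx+DHT) mice. Points are the 5 mice per group, horizontal bars the mean and vertical bars the SD, and each axis starts at 0; Dbp, Tef, Per1 and Per3 show no overlap between control mice and either orchiectomized group, whereas Hlf in DHT-treated mice overlaps the control mice.

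The period genes encode the repressors that with the cryptochromes close the feedback loop. Per1 (chr11:69095217-69109960) was at 23.1, 23.0, 28.1, 25.7 and 25.9 CPM in control mice. It was at 32.4, 49.7, 44.9, 59.5 and 66.5 CPM in orchiectomized mice and at 35.7, 36.1, 37.9, 53.8 and 65.6 CPM in DHT-treated mice. The control mice were close together (SD 2.12 CPM), and every library of both other groups lay above them with a far wider spread (SD 13.2 and 13.4 CPM). Per3 (chr4:151003652-151044665) was at 12.9, 8.62, 10.4, 11.0 and 12.8 CPM in control, 18.5, 20.4, 21.0, 31.1 and 19.8 CPM in orchiectomized, and 19.0, 15.8, 13.3, 24.6 and 13.5 CPM in DHT-treated mice. Its lowest DHT-treated libraries were just above the highest control library. In GENCODE, Per3 lies wholly inside Camta1 on the same strand. Camta1 averaged 25.5 ± 3.39, 29.7 ± 5.52 and 32.3 ± 5.44 CPM in the 3 groups. Per2 (chr1:91415982-91459324) overlapped between all 3 groups, with ranges of 13.9 to 27.4, 20.7 to 35.5 and 23.0 to 35.0 CPM in control, orchiectomized and DHT-treated mice.

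The REV-ERB receptors link the loop to Arntl, which they repress. Nr1d1 (chr11:98767932-98775333) was at 111, 67.1, 69.2, 116 and 88.8 CPM in control, 166, 104, 142, 171 and 124 CPM in orchiectomized, and 154, 108, 112, 121 and 99.7 CPM in DHT-treated mice. Nr1d2 (chr14:18204054-18239127) was at 55.5, 37.7, 33.9, 61.5 and 49.6 CPM in control, 85.4, 66.0, 99.0, 108 and 82.9 CPM in orchiectomized, and 87.1, 63.9, 47.4, 67.3 and 49.9 CPM in DHT-treated mice. The orchiectomized libraries of Nr1d2 all lay above the control libraries, whereas those of Nr1d1 overlapped them. In both genes, control replicates 1 and 4 were the 2 highest control libraries, as for Dbp. Nr1d1 shares 1075 bases with Thra on the opposite strand. Thra averaged 288 ± 22.0, 283 ± 65.8 and 343 ± 12.8 CPM in control, orchiectomized and DHT-treated mice.

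Ciart (CHRONO, a repressor of the CLOCK-BMAL1 heterodimer) and Bhlhe41 (DEC2, a repressor that competes for E-boxes) completed the set. Ciart (chr3:95878503-95882251) was the least abundant, with 8 to 18, 14 to 34 and 12 to 40 counts per library in control, orchiectomized and DHT-treated mice, so counting error is a large part of its spread. Its means were 1.12 ± 0.376, 1.90 ± 0.506 and 2.35 ± 0.794 CPM (SD, n = 5). An antisense transcript, C920021L13Rik, covers all of Ciart and was at 1.11 ± 0.221, 1.08 ± 0.487 and 1.21 ± 0.183 CPM. Bhlhe41 (chr6:145858243-145865558) had means of 20.1 ± 4.54, 29.6 ± 5.53 and 24.7 ± 4.92 CPM, and its groups overlapped. Divided by exon length, the control levels ran from Nr1d1 (29.4 CPM per kb) through Tef (11.8) and Nr1d2 (8.81) to Per3 (1.16) and Ciart (0.493). With orchiectomy Dbp stood at 13.8 CPM per kb, next after Nr1d2 (16.3), where in control mice it was at 3.00, level with Bhlhe41 (2.99).

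Between orchiectomized and control mice, the log2 fold change was positive for all 10 genes. It was 2.19 ± 0.35 (SE) for Dbp, a 4.56-fold difference, 1.01 ± 0.20 for Per1 and 0.99 ± 0.19 for Per3. It was 0.89 ± 0.20 for Nr1d2, 0.76 ± 0.31 for Ciart, 0.72 ± 0.12 for Tef and 0.64 ± 0.18 for Nr1d1. The smallest differences were those of Bhlhe41 (0.56 ± 0.18), Hlf (0.51 ± 0.20) and Per2 (0.49 ± 0.20). The difference of Dbp was more than that of any other member, with Per1 next. The median over the 10 genes was 0.74, beside 0.04 over all tested genes. For 5 genes (Dbp, Tef, Per1, Per3 and Nr1d2) every orchiectomized library lay above every control library, as was true of 0.991% of all tested genes. At an unadjusted P under 0.01, 7 of the 10 were counted, against 3.22% of all genes. These counts restate the contrast by which the set was selected, and nothing is read from them. Without orchiectomized replicate 2, the library with the high Ltf, the median was 0.77, and no member changed its sign.

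The second comparison asked how the genes stood in DHT-treated against orchiectomized mice. It shares the orchiectomized libraries with the contrast that selected the set, so its values are not independent of that choice. In edgeR's quasi-likelihood test with Benjamini-Hochberg adjustment over all genes, 0 of the 10 genes passed an adjusted P of 0.05, which 4.72% of all genes passed. No gene of the set had every DHT-treated library below every orchiectomized library, as 4.34% of all genes had. Hlf was the only member under an unadjusted P of 0.01 (9.72% of all genes), and Hlf and Nr1d2 were the 2 members under 0.05 (21.2% of all genes).

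The estimate for Hlf was a log2 fold change of -0.67 ± 0.20 (adjusted P = 0.0637), or 0.627 of the orchiectomized level. In DESeq2 and in limma voom with quality weights Hlf passed, with adjusted P values of 0.0302 and 0.0455, as did 9.1% and 3.72% of all genes, and over 8 alternative settings its adjusted P ran from 0.0302 to 0.130. With 1 library left out at a time by edgeR, its log2 fold change ran from -0.77 to -0.58 and its adjusted P from 0.052 to 0.155. No member was under an unadjusted P of 0.01 without orchiectomized replicate 2 or 4 or without DHT-treated replicate 2, 3 or 5. Nr1d2 had -0.48 ± 0.19 (adjusted P = 0.167) and Dbp -0.39 ± 0.33 (adjusted P = 0.525). The interval for Dbp, from -1.09 to 0.30, includes both no difference and a halving of the level. Per3 had -0.36 ± 0.19 (adjusted P = 0.287). Bhlhe41, Nr1d1, Tef and Per1 lay between -0.26 and -0.15, and Per2 and Ciart were at 0.07 and 0.31, with adjusted P values from 0.426 to 0.881. The 95% intervals were -0.44 to 0.08 for Tef and -0.56 to 0.27 for Per1. Leaving out 1 library at a time moved several of these estimates by more than 1.5 times, none of them past the threshold. The values nearest 0 were -0.24 for Dbp (without orchiectomized replicate 1), -0.08 for Tef, -0.14 for Nr1d1 and -0.17 for Per3 (each without orchiectomized replicate 4), and -0.15 for Bhlhe41 (without DHT-treated replicate 4). Per1 ran from -0.28 (without DHT-treated replicate 5) to -0.03 (without orchiectomized replicate 5) and Ciart from 0.13 to 0.49 (without DHT-treated replicates 1 and 5, respectively).

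**Figure D3:**
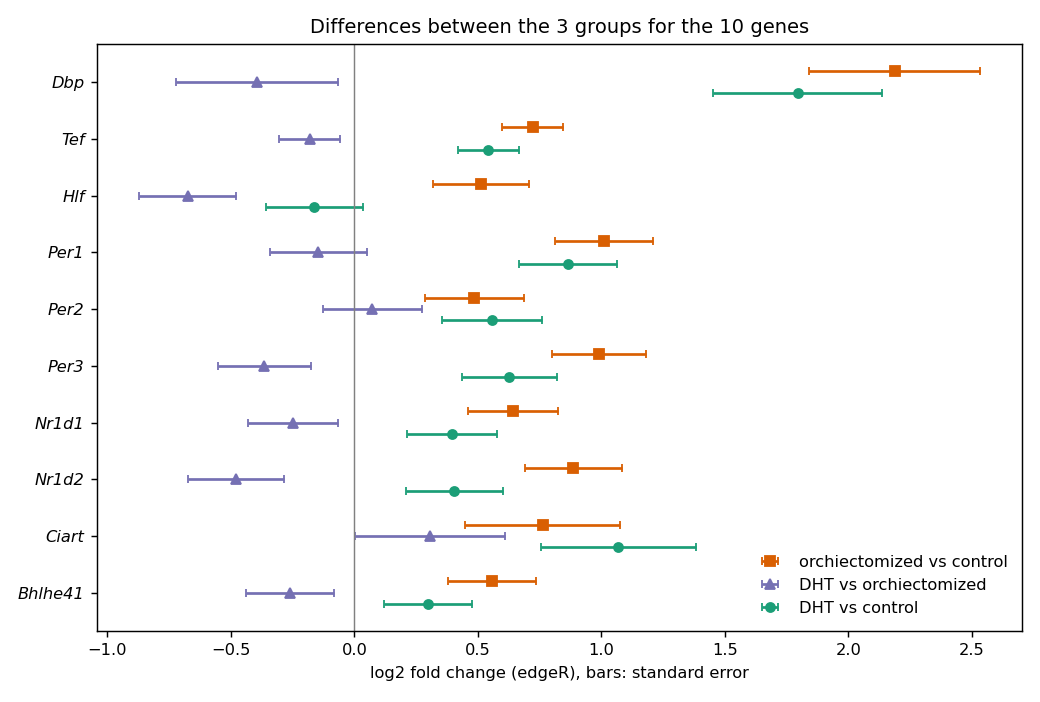
Log2 fold changes of the 10 genes between the 3 groups (edgeR), with bars of 1 standard error. Squares compare orchiectomized with control mice, triangles DHT-treated with orchiectomized mice and circles DHT-treated with control mice; squares and circles share the control libraries, and all squares lie above 0, as do the circles of 9 genes, whereas that of Hlf (-0.16) lies below 0.

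The third comparison asked whether the genes of DHT-treated mice differed from those of control mice. It shares the control libraries with the contrast that selected the set and is likewise not independent of it. Dbp rose by a log2 fold change of 1.79 ± 0.34, or 3.47-fold, and was the only member to pass (adjusted P = 0.0464 in edgeR's quasi-likelihood test), where 0.262% of all genes passed. Leaving out 1 library at a time, this call held without control replicate 4 (adjusted P = 0.0347) or without orchiectomized replicate 2 (adjusted P = 0.0302) and was lost in the other 13 fits, where the adjusted P reached 0.136. The estimated difference stayed above 0, ranging from 1.62 to 2.09 over the 15 fits. For 4 genes (Dbp, Tef, Per1 and Per3) every DHT-treated library lay above every control library, as was the case for 1.78% of all genes.

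Tef had a log2 fold change of 0.54 ± 0.12 (adjusted P = 0.0908) and Per1 of 0.86 ± 0.20 (adjusted P = 0.0915), and both passed in DESeq2 (adjusted P = 0.00521 and 0.00574), in which 1.63% of all genes passed. In voom, Dbp and Tef passed, as did 1.1% of all genes. Over the 8 alternative settings, the adjusted P ran from 0.00521 to 0.178 for Tef and from 0.00574 to 0.131 for Per1. Ciart had 1.07 ± 0.31 (adjusted P = 0.211) and Per3 0.63 ± 0.19 (adjusted P = 0.234). These 5 genes were under an unadjusted P of 0.01, as were 3.53% of all genes. Per2 (0.56), Nr1d2 (0.41), Nr1d1 (0.39) and Bhlhe41 (0.30) did not reach that level. Hlf had -0.16 ± 0.20, with an interval from -0.58 to 0.26. As single libraries were left out it ran from -0.29 (without DHT-treated replicate 4) to -0.04 (without control replicate 5), and Nr1d2 was at 0.26 without DHT-treated replicate 1.

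The other core clock genes were measured beside the set. Of 10 tested genes among 11 listed, 9 had a negative log2 fold change between orchiectomized and control mice, with a median of -0.51. Over all 14121 tested genes, 8022 had a positive one, with a median of 0.04. Arntl, which encodes BMAL1 and is repressed by the REV-ERB receptors, was at 42.7, 59.2, 45.0, 53.7 and 51.2 CPM in control mice. It was at 25.0, 26.9, 33.0, 28.3 and 37.6 CPM in orchiectomized and 41.4, 37.0, 32.6, 35.5 and 33.4 CPM in DHT-treated mice. Arntl was thus below every control library in both orchiectomized groups, the reverse of Dbp, Tef, Per1 and Per3. Of all 14121 tested genes, 73 lay wholly below the control libraries in orchiectomized mice and 253 in DHT-treated mice. The log2 fold change of Arntl was -0.74 ± 0.12 between orchiectomized and control mice and -0.48 ± 0.12 between DHT-treated and control mice (adjusted P = 0.137). Nfil3, the D-box repressor, had -0.70 ± 0.19 and Cry1, a cryptochrome, -0.65 ± 0.19 between orchiectomized and control mice. The other cryptochrome, Cry2, had 0.05 ± 0.09. In the 2 comparisons that involve DHT, 0 of the 10 genes passed an adjusted P of 0.05 by edgeR's quasi-likelihood test, and 1 (against orchiectomized mice) and 3 (against control mice) had an unadjusted P under 0.05, beside 21.2% and 11.8% of all genes. By DESeq2, 0 and 1 of them passed, and by voom 0 and 0. In the same 2 comparisons, the adjusted threshold was passed by 4.72% and 0.262% of all genes by edgeR. The shares were 9.1% and 1.63% by DESeq2, and 3.72% and 1.1% by voom.

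The log2 ratio of Dbp to Arntl put both arms in 1 number per library. It was -2.64 ± 0.88 in control mice (SD, n = 5; range -3.38 to -1.58), 0.42 ± 0.56 in orchiectomized mice (-0.01 to 1.16) and -0.22 ± 0.24 in DHT-treated mice (-0.50 to 0.11). The control libraries did not overlap either other group. The ratio was formed from genes chosen by the contrast of orchiectomized and control mice and carries no test.

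**Figure D4:**
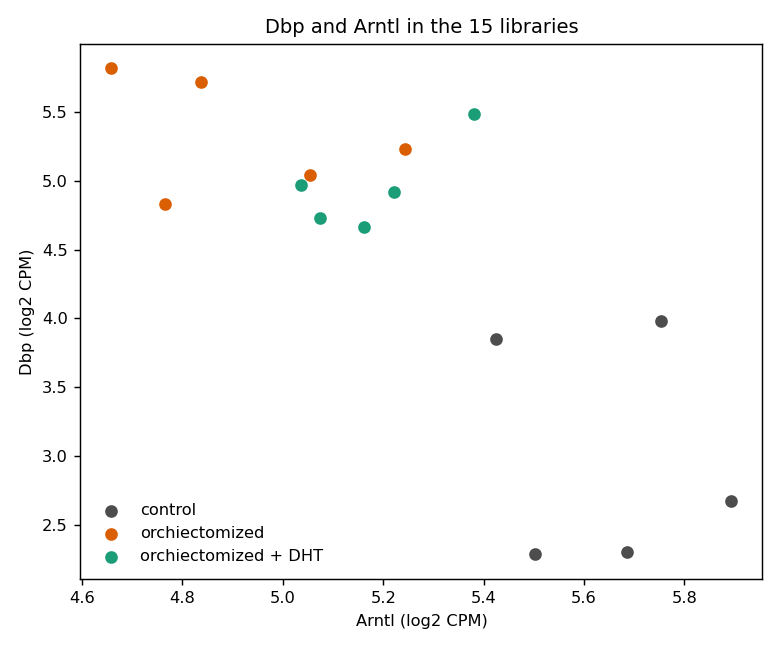
Dbp against Arntl in the 15 libraries, both in log2 CPM, with 1 point per mouse and color by group. The control mice (gray) sit at low Dbp and high Arntl, and the orchiectomized (orange) and DHT-treated mice (green) share the opposite corner.

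Genes downstream of the clock were also measured. Among 5 tested target genes of the PAR bZIP factors, such as Pdxk and Por, the median log2 fold change was 0.07 between orchiectomized and control mice (0.74 over the 10 clock genes). It was -0.24 between DHT-treated and orchiectomized mice (-0.25 over the clock genes) and -0.17 between DHT-treated and control mice (0.55 over the clock genes). Of these target genes, 0 passed an adjusted P of 0.05 by edgeR, DESeq2 or voom in either comparison involving DHT. By edgeR, 1 against orchiectomized and 0 against control mice had an unadjusted P under 0.05. Against orchiectomized mice the adjusted threshold was passed by 4.72%, 9.1% and 3.72% of all genes by edgeR, DESeq2 and voom. Against control mice it was passed by 0.262%, 1.63% and 1.1%. Among 8 rhythmic output genes, Wee1, a kinase that restrains entry into mitosis, had a log2 fold change of 0.59 ± 0.15 between orchiectomized and control mice without overlap, whereas Pdk4, a kinase of fuel metabolism, had -0.89 ± 0.46. For 0.991% of all genes, every orchiectomized library lay above every control library. The 11 modifiers of clock proteins, such as the kinase gene Csnk1d, had a median of 0.02, and 0 of them or of the 8 output genes passed by edgeR, DESeq2 or voom in a comparison involving DHT. At an unadjusted P under 0.05 by edgeR, 1 modifier and 1 output gene were counted in each of these comparisons, where 21.2% and 11.8% of all genes were.

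Per1 is also a target of corticosteroid receptors, so the other targets were read beside it. Of 10 listed genes, 3 passed above the orchiectomized level with DHT, beside 0.921% of all genes: Fkbp5, a chaperone of steroid receptors, with a log2 fold change of 1.44 ± 0.24 (adjusted P = 0.00777), the metallothionein Mt2 with 1.43 ± 0.26 (adjusted P = 0.0113) and the transcription factor Zbtb16 with 1.04 ± 0.27 (adjusted P = 0.0432), all by edgeR's quasi-likelihood test. These 3 genes are also known to respond to androgens. Their differences between orchiectomized and control mice were -0.09 ± 0.24, -0.33 ± 0.26 and -0.04 ± 0.27, where Per1 had 1.01 ± 0.20. Between DHT-treated and control mice they were 1.35 ± 0.24, 1.11 ± 0.26 and 0.99 ± 0.27, where Per1 had 0.86 ± 0.20. The adjusted P values of these 3 genes in that comparison were 0.035, 0.0929 and 0.183 by edgeR's quasi-likelihood test. Tsc22d3 (GILZ), a corticosteroid-induced leucine zipper protein, stood nearer to Per1, with 0.66 ± 0.22 between orchiectomized and control mice, -0.16 ± 0.22 between DHT-treated and orchiectomized mice (Per1: -0.15 ± 0.20) and 0.50 ± 0.22 between DHT-treated and control mice (adjusted P = 0.391 in edgeR's quasi-likelihood test). Sgk1, the kinase through which aldosterone acts on sodium channels, had 0.28 ± 0.15, -0.01 ± 0.15 and 0.28 ± 0.15 in the same comparisons. The median of the 10 genes was 0.01, 0.20 and 0.48 in turn. Of the 9 immediate early genes, which respond to handling and tissue stress, all had positive log2 fold changes between orchiectomized and control mice (median 0.39) and negative ones between DHT-treated and orchiectomized mice (median -0.59), and 0 passed an adjusted P of 0.05 by edgeR, DESeq2 or voom, or an unadjusted P of 0.05 by edgeR, in a comparison involving DHT. Over all genes, 21.2% were under that unadjusted P between DHT-treated and orchiectomized mice and 11.8% between DHT-treated and control mice, and the adjusted threshold was passed by edgeR, DESeq2 and voom by 4.72%, 9.1% and 3.72% in the first comparison and by 0.262%, 1.63% and 1.1% in the second. Their part in the level of Per1 was not tested.

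Variation between mice of 1 group was examined next, since it does not use the differences between groups by which the set was selected. The deviation of each gene's log2 CPM from its group mean was correlated with that of Dbp over the 15 libraries, with a two-sided permutation test of the Dbp deviations within groups and Benjamini-Hochberg adjustment over 14120 genes. Nr1d1 had Pearson's r = 0.83 (permutation P = 0.00252, adjusted P = 0.411) and Spearman's rho = 0.78 (permutation P = 0.0055, adjusted P = 0.504). Tef had r = 0.70 (permutation P = 0.0137, adjusted P = 0.532) and rho = 0.65 (permutation P = 0.0201, adjusted P = 0.564). Bhlhe41 had r = 0.68 (permutation P = 0.00636, adjusted P = 0.462) and rho = 0.71 (permutation P = 0.00456, adjusted P = 0.471). None of these passed the adjustment.

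Nr1d2 (r = 0.66, permutation P = 0.0201, adjusted P = 0.536; rho = 0.64, permutation P = 0.0229, adjusted P = 0.583) and Per2 (r = 0.58, permutation P = 0.0459, adjusted P = 0.554; rho = 0.52, permutation P = 0.074, adjusted P = 0.633) followed. Ciart and Per3 had r = 0.24 and 0.18, while Hlf and Per1 had -0.24 and -0.32, each with an adjusted permutation P of at least 0.608. Without control replicates 4 and 1, whose Dbp deviations were farthest from the median, r was 0.71 for Nr1d1, 0.70 for Bhlhe41, 0.51 for Tef, 0.48 for Nr1d2 and 0.39 for Per2. The relation of Dbp to Tef, Nr1d2 and Per2 therefore rested in part on those 2 libraries. Of the 14120 genes, 0 had an adjusted permutation P under 0.05 by either coefficient, and 1264 had an unadjusted one under 0.05 for r. The r with Dbp was positive for 7 of the 9 other members, beside 47.2% of all genes, with a median of 0.58 beside -0.03. The same test gave r = -0.08 for Arntl (permutation P = 0.787, adjusted P = 0.923) and rho = -0.02 (permutation P = 0.950, adjusted P = 0.988). Cry2 had r = 0.70 (permutation P = 0.00294, adjusted P = 0.413) and rho = 0.68 (permutation P = 0.00524, adjusted P = 0.487). Cry1, the other cryptochrome, had negative coefficients, with r = -0.57 (permutation P = 0.0311, adjusted P = 0.543) and rho = -0.61 (permutation P = 0.0223, adjusted P = 0.583). Without the same 2 libraries r was 0.73 for Cry2 and -0.35 for Cry1.

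**Figure D5:**
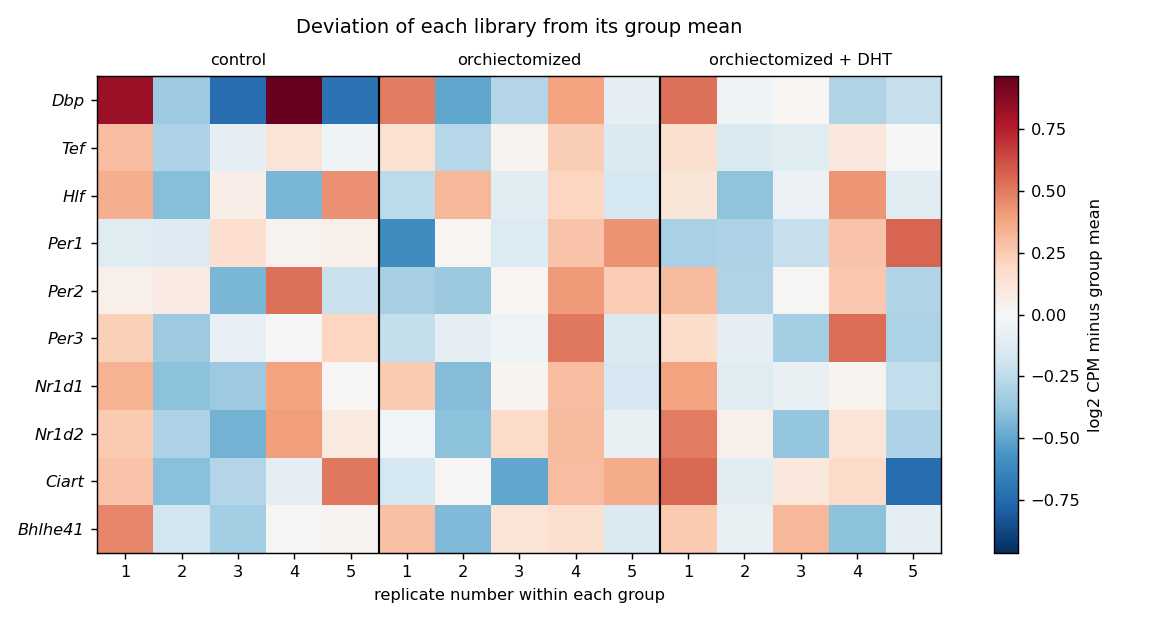
Deviation of each library from its group mean in log2 CPM, with the 10 genes as rows, the 15 libraries as columns and red above and blue below the mean. Orchiectomized replicate 4 has 10 of 10 genes above its group mean, control replicate 1 and DHT-treated replicate 1 have 9 each, and the row of Per1 follows another order than the rows of Dbp, Tef, Nr1d1 and Nr1d2.

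Some libraries were high or low for most of the set. In orchiectomized replicate 4, 10 of 10 genes were above the group mean, with a mean deviation of 0.31 on the log2 scale. In control replicate 1 and in DHT-treated replicate 1, 9 of 10 were above it, whereas in control replicate 2 and in DHT-treated replicates 2 and 5 only 1 was. Measured against the mean of the other 9 members, the deviations of Nr1d1 (r = 0.85), Tef (r = 0.81), Nr1d2 (r = 0.81) and Per3 (r = 0.70) were the closest, and those of Hlf (r = 0.26) and Per1 (r = -0.13) the least close. The genes outside the set that were most like its mean deviation over the 15 libraries were Hps5 (r = 0.78), Nbn (r = 0.75), Accs (r = 0.75) and Acot6 (r = 0.73). Among the most opposed were Ebag9, Clstn2 and E2f1 (r = -0.82 to -0.81). These values describe libraries that also share depth and tissue makeup and carry no test. Arntl, with r = 0.00, ranked 6456 of the 14111 genes outside the set.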

How the data were processed

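Per the labels, poly(A)-selected RNA of cleaned whole aortas was sequenced, and the submitters' processing notes name STAR, Cufflinks, DESeq2 and mm10 without versions. The authors deposited raw counts per gene symbol for each of the 15 libraries. The counting program, annotation and strand setting are not given in the sources used here. Reads in no gene (6.26% to 14.4%) and ambiguous reads (1.34% to 1.97%) were left out. At the median depth, 10 counts equal 0.915 CPM.

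Groups followed the labels. Counts were filtered (filterByExpr, minimum count 10, minimum total 15), normalized by TMM and tested with edgeR 4.0.16 in R 4.3.3 by the quasi-likelihood test over all 15 libraries, with no covariate. Calls used a Benjamini-Hochberg adjusted P under 0.05 over 14121 genes. Correlations used log2 CPM with a prior count of 3 and 100000 permutations. Alternatives were DESeq2 1.42.0, limma 3.58.1 (voom), other filters and normalization, and leaving out each library. The scripts were tested on simulated data. Libraries of a group differed beyond sampling noise. Errors of CPM means are SDs (n = 5) and those of log2 fold changes SEs. Nothing in the labels beyond 1 aorta per library separates biological from technical spread. Gene positions are from GENCODE M21 and promoters from RefSeq. The named genes were the 10 clock genes, the genes of the listed pathways and markers, and the 4 most and 4 least alike in deviation, of which 1 is not reported here. The genes and lists were chosen with earlier results of these data known.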

Additional observations from a re-analysis of the deposited data

Results flagged for a closer look

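Each of the 10 genes was examined in each group of 5 for a library far from the others by Dixon's criterion (30 groups). By chance about 1 in 20 such groups is picked out, and 1 of the 30 was. It was Per3 in orchiectomized replicate 4, at 31.1 CPM, where the next library was at 21.0 CPM and the lowest at 18.5 CPM, a gap of 0.804 of the range. Without that library the log2 fold change of Per3 between orchiectomized and control mice was 0.80, and that between DHT-treated and orchiectomized mice was -0.17.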

How the results depend on the processing

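The number of the 10 genes called between DHT-treated and orchiectomized mice was 0 by edgeR and 1 (Hlf) with an unadjusted P under 0.01, with DESeq2 (log2 fold change -0.64) or with limma voom with quality weights (-0.70). Between DHT-treated and control mice it was 1 (Dbp), 5 with the unadjusted P under 0.01, 3 with DESeq2 (Dbp, Tef and Per1; 230 genes in all against 37 by edgeR), 2 with voom (Dbp and Tef; 156 genes in all), and 0 when all genes with at least 1 count entered or when only the groups compared were fitted, where the adjusted P of Dbp was 0.0633 and 0.0696. Leaving out 1 library at a time, that number ran from 0 to 1, and between DHT-treated and orchiectomized mice it stayed at 0. The median log2 fold change between orchiectomized and control mice ran from 0.63 to 0.82. Only Per2 changed its sign: between DHT-treated and orchiectomized mice it was 0.07, with -0.16 under voom and -0.0095 to 0.22 as libraries were left out (-0.0022 without orchiectomized replicate 2), never past the threshold. Of the values per gene, 211 kept their direction and side of the threshold between DHT-treated and control mice (3 passed in addition and 15 no longer passed) and 224 between DHT-treated and orchiectomized mice (2 passed in addition and 3 changed sign). The number of the 9 other genes with a positive correlation with Dbp was 7 in each alternative. Over all genes, the replicate numbers showed no consistent pairing of the samples (correlations of same-numbered libraries -0.47 to 0.46, 5 of 15 over 0.1). For the 10 genes, the mean deviations in control, orchiectomized and DHT-treated mice shared a sign for some numbers. They were -0.27, -0.21 and -0.15 for replicate 2, -0.25, -0.07 and -0.07 for replicate 3, and 0.19, 0.31 and 0.13 for replicate 4. The signs differed for replicates 1 (0.30, -0.04 and 0.27) and 5 (0.04, 0.01 and -0.17). A link between same-numbered libraries was not tested, and the permutation test took them as unlinked. With the numbers as a replicate block the counts were 1 and 0 and the median 0.75. Ciart, with 8 to 40 counts, was not tested where 10 counts in every library were required. The causes of these changes were not tested.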
